A study of Mus musculus with 16 samples.

Results

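RNA-seq of a pair of Eef1d exon 5 knockout clones, clone 1 (KO1) and clone 2 (KO2), was compared directly. Both clones descend from Hepa1-6, a mouse hepatoma cell line, and both were made with the same pair of CRISPR guides, so the comparison holds the parental line, the genotype and the guides constant and asks how far sister clones differ. The comparison used 4 of the 16 libraries of the series, namely 2 replicates of KO1 and 2 of KO2. Each line was grown out from a single cell after transfection and puromycin selection, so each is 1 clone, and the replicates measure the spread between lysates of that clone, not between clones. The parental wild-type cells (WT) and a knockout clone made with another guide pair (KO3), 2 RNA-seq libraries each, were used only as context, and WT takes no part in the comparison. All lines were cultured alike in medium with serum, and no agent was given other than cycloheximide and chloramphenicol in the lysis buffer. Each gene was represented by 1 transcript, the one with the largest sum over the 16 libraries, which left 22392 genes of 67139 transcripts. Of these, 11495 genes had enough counts to be tested. Over all 22392 genes, the RNA-seq libraries held 11413486 and 10493030 counts in KO1, and 10563410 and 12325249 in KO2.

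eEF1Bδ, the product of Eef1d, is a guanine nucleotide exchange subunit of the elongation factor complex that reloads eEF1A with GTP, so that eEF1A can bring aminoacyl-tRNA to the ribosome. Cell lines kept in culture are mixtures of cells that differ in chromosome content, gene silencing and differentiation state, and growth from a single cell fixes 1 of these states in the whole population. Hepatoma lines retain part of the hepatocyte program, which includes secreted plasma proteins, lipoprotein production and sterol synthesis.

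The deletion targets exon 5 of Eef1d, a cassette of 72 bases that encodes 24 codons and keeps the reading frame. It lies at chr15:75900691-75900762 (GRCm38, minus strand, coding exon) and is shown because its loss is what both clones share, with all of its bases in lower case.

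Eef1d exon 5: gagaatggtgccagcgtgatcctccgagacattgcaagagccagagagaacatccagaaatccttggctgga

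The targeted gene was examined first. The 272 counted codons of the Eef1d transcript with exon 5 (ENSMUST00000154584.8) received 1897 and 1717 counts in KO1 and 1953 and 2237 in KO2. The matching transcript without it (ENSMUST00000109972.8) received 2072 and 1893 counts in KO1 and 2175 and 2467 in KO2. Reads in shared exons were counted for both transcripts, so that reads on exon 5 push the ratio of these counts above 100%. The transcript with exon 5 stood at 91.6% and 90.7% of the other in KO1, at 89.8% and 90.7% in KO2, and at 116% in both WT libraries. Thus the clones overlapped each other and lay apart from WT, as their shared genotype label states. In the fit over all transcripts, the log2 fold change of KO1 over KO2 was -0.15 ± 0.07 (SE, adjusted p = 0.0699) for the transcript with exon 5 and -0.16 ± 0.07 (adjusted p = 0.0412) for the one without, by edgeR's quasi-likelihood test with Benjamini-Hochberg adjustment. The second call was lost under 10 of 12 other settings. Over all transcripts, 43.9% passed the same threshold.

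The genes around the complex differed little between the clones, with 1 exception. Eef2, the GTPase that moves the ribosome along the mRNA by 1 codon, was at 6739 and 7050 CPM (counts scaled to the total of the library) in KO1 and at 3827 and 4280 in KO2. Its values in KO1 were higher in both libraries, with no overlap, and the log2 fold change was 0.75 ± 0.05 (SE, adjusted p = 2.06e-16). Eef1a1, which encodes the main eEF1A, rose by 0.17 (adjusted p = 0.00255), and Eef1b2, which encodes the other exchange subunit, rose by 0.18 (adjusted p = 0.00409). Eef1g, the scaffold subunit, rose by 0.19 (adjusted p = 0.00317), and Vars, the valyl-tRNA synthetase that binds the complex, by 0.20 (adjusted p = 0.00547). Ktn1, an anchor of the complex on the endoplasmic reticulum, rose by 0.30 (adjusted p = 0.00247). The log2 fold change of Rrbp1, a ribosome-binding protein of the endoplasmic reticulum, was -0.09 (adjusted p = 0.266), and that of Sec61b, a subunit of the translocon, was -0.11 (adjusted p = 0.208). Eef1d itself was at 184 and 182 CPM in KO1 and at 208 and 202 in KO2, and fell by 0.17 on the log2 scale (adjusted p = 0.0312). Eef1a2, the eEF1A form of neurons and muscle, had no count in any of the 4 libraries.

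Across all genes, the clones differed at 5738 of 11495 genes tested, a share of 49.9%. Of these, 2698 were higher in KO1 (23.5% of genes tested) and 3040 were lower (26.4%). Most differences were small, since 81.2% of them were under 2-fold and their median size was 0.53 on the log2 scale. A difference of at least 2-fold was called for 1081 genes (9.4% of genes tested), of which 439 were higher and 642 lower in KO1, and a log2 fold change of at least 3 was reached by 51 higher and 89 lower genes. The libraries of 1 clone correlated across genes at r = 0.993 in KO1 and 0.992 in KO2, on edgeR's log2 CPM scale. Libraries of different clones correlated at 0.945 to 0.946, where genes are not independent replicates. The 4 values did not overlap between the clones for 8525 genes tested (74.2%) and for 5717 of the 5738 genes called. These p-values measure the spread between 2 lysates of each clone, and the labels do not say whether the lysates came from separately kept cultures.

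Called genes were next ranked by log2 fold change. The ranks took genes with 10 CPM or more in the higher clone and 4 counts or more in each library of the lower one. Tm4sf1, a tetraspanin-like membrane protein, was at 47.4 and 42.8 CPM in KO1 and at 0.473 and 0.487 in KO2. Both KO1 libraries were far above both KO2 libraries, with a log2 fold change of 6.51 ± 0.24 (SE, adjusted p = 1.35e-25). Enpp2, the secreted enzyme that makes lysophosphatidic acid, was at 205 and 195 CPM in KO1 and at 23.8 and 20.2 in KO2, a log2 fold change of 3.18 ± 0.09 (adjusted p = 2.03e-29). Lbp, the plasma protein that binds bacterial lipopolysaccharide, was at 51.3 and 53.6 CPM in KO1 and at 3.79 and 5.03 in KO2. Cfi, the protease that inactivates complement C3b, was at 39.0 and 38.5 CPM in KO1 and at 3.50 and 4.87 in KO2. Neither gene overlapped between the clones, and their log2 fold changes were 3.54 and 3.18. The other 4 genes among the 8 with the largest rise were Mmp9, a gelatinase (3.96), the chemokine Cxcl15 (2.93), the collagen Col14a1 (2.85) and Nckap5 (2.83).

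In the other direction stood a pair of matrix metalloproteinases encoded on chromosome 9. Mmp13, a collagenase (chr9:7272514-7283331, GRCm38), was at 6.83 and 6.19 CPM in KO1 and at 277 and 236 in KO2. Mmp10, stromelysin 2 (chr9:7502352-7510240), was at 1.49 and 1.52 CPM in KO1 and at 69.2 and 53.5 in KO2. In both genes the KO1 values were low and the KO2 values high, with log2 fold changes of -5.30 ± 0.11 (adjusted p = 1.02e-34) and -5.35 ± 0.19 (adjusted p = 4.90e-26). Igf2, the imprinted fetal growth factor, was at 0.438 and 0.762 CPM in KO1 and at 21.2 and 23.7 in KO2 (log2 fold change -5.23, adjusted p = 7.04e-20). WT, at 3.85 and 2.83 CPM, lay between the clones and apart from both, while KO3, at 1.55 and 0.478, was near KO1. Aldh1l2, a mitochondrial enzyme of folate metabolism (-5.28), Enpp1, an ectonucleotidase (-5.18), and Ano1, a chloride channel (-5.11), fell by similar amounts. Apoc2 and Gm44805 completed the 8 genes with the largest fall, but they had the same count in every library and overlap in the annotation, so they were taken as 1 signal.

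The 5 largest falls in CPM included Apoe, Actg1 and Krt18. Apoe, the apolipoprotein that carries lipoprotein remnants to their receptors, was at 147 and 151 CPM in KO1 and at 1923 and 2091 in KO2. The KO1 libraries were alone at this low level, since WT was at 1891 and 1946 and KO3 at 2153 and 2545, and the log2 fold change of KO1 over KO2 was -3.76 ± 0.06 (SE, adjusted p = 4.82e-38). Actg1, cytoplasmic gamma actin, was at 1047 and 1017 CPM in KO1 and at 2103 and 2266 in KO2 (-1.09, adjusted p = 1.06e-20). Krt18, a keratin of simple epithelia, was at 896 and 917 CPM in KO1 and at 1561 and 1614 in KO2 (-0.82, adjusted p = 1.49e-16). The rest of the 5 were the near-identical histone genes Hist2h3c1 and Hist2h3c2, whose reads may have been split between copies and whose values are uncertain. The 5 largest rises in CPM were Eef2, the cornified envelope gene Sprr1a (0.76), the ribosomal protein genes Rps2 (0.41) and Rpl21 (0.78), and Gapdh, an enzyme of glycolysis (0.43).

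Genes of lipoprotein assembly were lower in KO1 beyond Apoe. Of 12 members tested in this list, 9 fell and 2 rose, beside 26.4% lower and 23.5% higher over all genes tested. The median log2 fold change was -1.14 for the list, whereas that over all genes tested was 0.00081. The list summed to 833 and 814 CPM in the KO1 libraries, against 2961 and 3091 for KO2 and 2794 and 2841 for WT. Apoe held the most counts, not scaled for length, but it was not the only member of its gene cluster to fall. The cluster runs along chromosome 7 from Apoc2 (chr7:19671579-19677941, GRCm38, minus strand) through Apoc4 (chr7:19678083-19681479) and Apoc1 (chr7:19689481-19692660) to Apoe (chr7:19696109-19699188). Apoc2, the cofactor of lipoprotein lipase, was at 1.93 and 1.52 CPM in KO1 and at 74.6 and 63.0 in KO2 (-5.31, adjusted p = 2.93e-27). Apoc4 was at 14.5 and 13.9 CPM in KO1 and at 67.4 and 71.9 in KO2 (-2.31, adjusted p = 6.74e-21). Apoc1 had 0 and 1 counts in KO1 and 29 and 44 in KO2. All 4 genes of the cluster were thus low in both KO1 libraries, while Clptm1 beside Apoc2 (-0.18) and Tomm40 beside Apoe (-0.57), picked after their values were seen, differed far less. Apob, the structural protein of secreted lipoproteins, on chromosome 12, was at 55.0 and 51.0 CPM in KO1 and at 149 and 128 in KO2 (-1.40, adjusted p = 9.64e-18). The members that rose were the cholesterol exporter Abca1 (0.38) and Scarb1, the receptor for high-density lipoprotein (0.33).

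RNA of most cholesterol synthesis genes fell in KO1 as well. Of 25 members tested, 21 fell and none rose, beside 26.4% lower and 23.5% higher over all genes tested. The median log2 fold change was -0.74, and Mvk, Stard4, Cyp51 and Ebp were not called. The summed level was 1408 and 1497 CPM in KO1, against 2361 and 2474 in KO2, 2195 and 2331 in WT, and 2154 and 2273 in KO3. Srebf2, the transcription factor that drives these genes when sterols are short, was at 201 and 216 CPM in KO1 and at 388 and 418 in KO2 (-0.96 ± 0.07, adjusted p = 3.62e-16). Msmo1, a sterol demethylase, was at 29.6 and 33.0 CPM in KO1 and at 106 and 100 in KO2 (-1.73, adjusted p = 1.61e-19). For both genes the KO1 values were below the KO2 values. Dhcr7, the last reductase of the pathway (-1.35), and Mvd, a decarboxylase of the mevalonate branch (-1.31), also fell. Fatty acid synthesis and storage moved the same way with smaller steps, where 16 of 26 members fell and 2 rose (median -0.39), and Fabp4, a fatty acid carrier, fell most (-4.33). Fasn, the fatty acid synthase, at 774 and 770 CPM in KO1 and 802 and 850 in KO2, did not pass the test (-0.11, adjusted p = 0.110), and neither did Srebf1, the factor that drives fatty acid synthesis (0.02, adjusted p = 0.791).

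Most tested genes driven by ATF4, the transcription factor of the integrated stress response, also fell in KO1. Of 31 members tested, 24 fell and 3 rose, beside 26.4% lower and 23.5% higher over all genes tested. The median log2 fold change was -0.60, and the summed level was 2972 and 2893 CPM in KO1 against 4646 and 4431 in KO2. The sums were 4781 and 4572 in WT and 5419 and 5379 in KO3, so the KO1 libraries were the lowest of the 8. Atf4 itself was at 227 and 220 CPM in KO1 and at 570 and 474 in KO2 (-1.24 ± 0.07, adjusted p = 4.16e-19). Asns, asparagine synthetase, was at 136 and 134 CPM in KO1 and at 287 and 253 in KO2 (-1.01, adjusted p = 7.19e-16). Phgdh, the entry enzyme of serine synthesis, was at 894 and 885 CPM in KO1 and at 1420 and 1465 in KO2 (-0.71, adjusted p = 1.68e-14). The clones did not overlap in any of the 3 genes. The largest falls were in Trib3, a pseudokinase (-2.86), Nupr1, a stress-induced nuclear protein (-2.76), and Chac1, an enzyme that degrades glutathione (-2.53). The 3 that rose were Cbs, cystathionine beta-synthase (1.34), Ddit4, an inhibitor of mTORC1 (1.11), and the arginine transporter Slc7a1 (0.28).

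The composite element that ATF4 binds with C/EBP proteins, TGATGNAAN on either strand, was searched in the 250 bases before each annotated start (RefSeq, GRCm38.p6). A gene was counted if any of its starts had a match. The element was present before 1052 of 27025 genes (3.89%) and before 219 of the 8982 matched genes that were tested (2.44%). In the ATF4 list it was present before 6 of the 28 matched genes (21.4%). Of these 6, Chac1, Asns, Pycr1 and Nupr1 fell, and the cystine transporter Slc7a11 (-0.16, adjusted p = 0.318) and the lipoprotein receptor Vldlr (0.32, adjusted p = 0.0680) did not pass the test. A match is a description of the letters and not a measured binding site. Because the list names targets of ATF4, its larger share of matches is not a test. How many of the 219 genes fell is not given, so the matches are not tied to the falls. The windows of the 4 genes that fell are given on the strand of the gene with the matched letters in capitals. Those of Slc7a11 and Vldlr, which also matched, are not shown.

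Asns, chr6:7693210-7693252, minus strand: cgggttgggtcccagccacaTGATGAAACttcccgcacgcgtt

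Pycr1, chr11:120643823-120643871, minus strand: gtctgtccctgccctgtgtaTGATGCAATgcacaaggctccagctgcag

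Chac1, chr2:119351028-119351076, plus strand: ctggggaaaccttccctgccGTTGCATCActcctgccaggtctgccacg

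Nupr1, chr7:126625553-126625601, minus strand: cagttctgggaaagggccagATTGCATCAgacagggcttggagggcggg

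Cytosolic aminoacyl-tRNA synthetases, the enzymes that charge tRNA with amino acids, fell alongside. Of 22 members tested, 15 fell and 3 rose (median -0.35), beside 26.4% lower and 23.5% higher over all genes tested. Cars, the cysteinyl enzyme, was at 76.1 and 82.4 CPM in KO1 and at 314 and 301 in KO2, with WT at 287 and 276 and KO3 at 287 and 286. Only the 2 KO1 libraries were low, and the log2 fold change was -1.97 ± 0.07 (SE, adjusted p = 1.72e-25). The next largest fall was that of Tars, the threonyl enzyme (-0.61). The element above was present before 3 of the 14 matched members (21.4%), namely Aars, Gars and Tars, all of which fell. The members that rose were Hars, Vars and Aimp2. The sterol regulatory element TCACNCCAC was present before 331 of all 27025 genes (1.22%), and before 1 of the 17 matched cholesterol genes. This was Hmgcs1, the synthase that supplies HMG-CoA and a member that fell (-0.67).

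**Figure D1:**
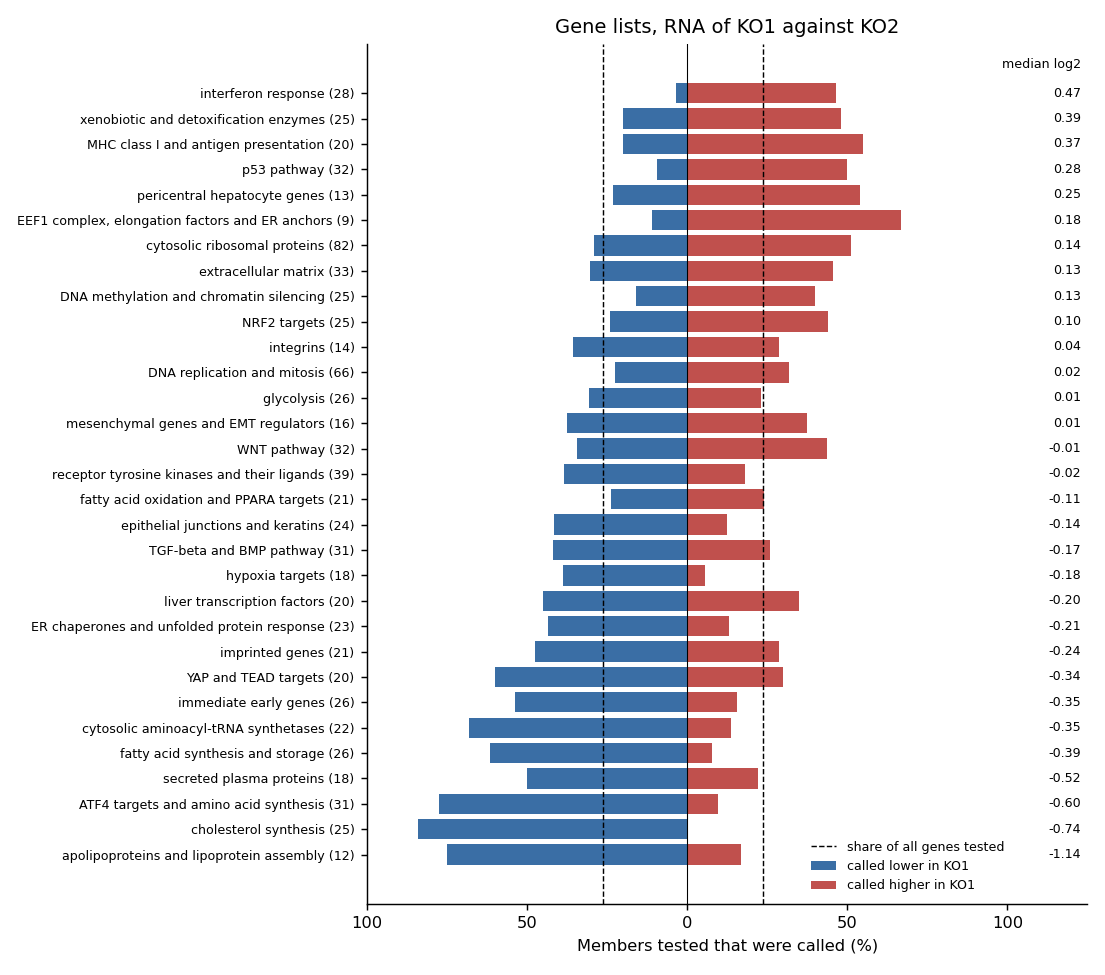
Share of the tested members of each gene list that was called lower (blue, left) or higher (red, right) in KO1 than in KO2, for lists with at least 8 members tested; numbers in brackets count the members tested. The dashed lines mark the shares over all genes tested (26.4% lower, 23.5% higher), and the column on the right gives the median log2 fold change, from -1.14 for lipoprotein genes to 0.47 for the interferon response.

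Markers of the hepatocyte showed that both clones kept the labelled identity only in part. Alb, serum albumin, was at 266 and 278 CPM in KO1, 528 and 468 in KO2, 791 and 749 in WT, and 1713 and 1830 in KO3. KO1 held the lowest pair and KO2 the next, and the difference between them was -0.88 ± 0.07 (SE, adjusted p = 2.84e-15). Afp, the fetal counterpart of albumin (-0.71), and Trf, the iron carrier transferrin (-1.47), fell as well. By contrast Ttr, the thyroxine carrier, and Serpina1a, an antitrypsin, had at most 3 counts in any of the 4 libraries. Of 51 plasma protein genes in the data only 18 could be tested, of which 9 fell and 4 rose (median -0.52). Over all genes tested 26.4% were lower and 23.5% higher, so the share that rose was near that of all genes. Among the 4 that rose were the complement gene C3 (1.54), the copper carrier Cp (1.91), and Fgb, a fibrinogen chain (1.03). C3 was at 267 and 228 CPM in KO1 and at 90.3 and 79.0 in KO2, with WT at 68.8 and 61.6, so that here KO1 stood above every other library.

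Of 20 liver transcription factors tested 9 were lower and 7 higher, beside 26.4% lower and 23.5% higher over all genes tested. Hnf4a, a master regulator of hepatocyte genes, was at 31.3 and 23.8 CPM in KO1 and at 93.9 and 97.8 in KO2 (-1.81 ± 0.10, adjusted p = 1.01e-18), where WT was at 110 and 105. Onecut2, a factor of liver and biliary development, was at 6.75 and 6.86 CPM in KO1 and at 39.0 and 45.9 in KO2 (-2.66, adjusted p = 5.26e-19). Both were low in KO1 only. Tbx3, a WNT-induced repressor, was at 197 and 173 CPM in KO1 and at 57.4 and 56.1 in KO2 (1.69, adjusted p = 1.97e-21), and the pioneer factor Foxa1 rose by 1.20.

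Genes of the pericentral zone, the part of the liver lobule where WNT signalling is strong, rose more often than they fell. Of 13 members tested 7 rose and 3 fell (median 0.25), beside 23.5% higher and 26.4% lower over all genes tested. Lgr5, the R-spondin receptor, was at 74.3 and 75.4 CPM in KO1 and at 15.0 and 13.4 in KO2 (2.39 ± 0.11, adjusted p = 1.21e-21). Notum, a secreted inhibitor of WNT ligands, was at 14.2 and 16.5 CPM in KO1, whereas KO2 held a single count in its 2 libraries (8.12, adjusted p = 1.73e-18). WT lay between the clones for both genes. The 3 that fell were Glul, Oat and Tcf7. Glul, the glutamine synthetase of the zone, was at 212 and 225 CPM in KO1 and at 354 and 366 in KO2 (-0.73, adjusted p = 9.28e-13). Oat, ornithine aminotransferase, fell by 0.71, and Tcf7, a nuclear partner of beta-catenin, by 0.63. Axin2, a common readout of the pathway, was at 612 and 571 CPM in KO1 and at 564 and 565 in KO2 and did not pass the test (0.06, adjusted p = 0.448), and over the WNT list 14 of 32 members rose and 11 fell (median -0.01). Lef1, of the same family as Tcf7, had 1 count in KO1 and was at 4.07 and 5.84 CPM in KO2 (-6.47, adjusted p = 8.06e-11), and Ctnnb1, beta-catenin, fell by 0.59. Xenobiotic and detoxification enzymes followed the direction of the pericentral genes, with 12 of 25 members higher and 5 lower (median 0.39, or 0.09 over the members with at least 10 counts in every library), led by the glutathione transferase Gsta3 (2.73) and the glucuronosyltransferase Ugt2b35 (2.66).

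Biliary and progenitor markers were few, and most of those tested fell. Spp1, osteopontin, was at 45.6 and 48.9 CPM in KO1, 383 and 385 in KO2, 309 in both WT libraries, and 362 and 410 in KO3, so that KO1 alone was low (-3.04 ± 0.08, adjusted p = 8.82e-32). Krt7, a keratin of bile ducts, was at 6.22 and 8.86 CPM in KO1 and at 151 and 141 in KO2 (-4.29, adjusted p = 4.36e-30). Of the 6 members tested 4 fell and 1 rose, beside 26.4% lower and 23.5% higher over all genes tested, and the sum over the list was 209 and 215 CPM in KO1 and 701 and 710 in KO2. Spp1 held the most counts over the 4 libraries together, but in KO1 Sox9, a biliary transcription factor, held more, with 801 and 763 counts against 521 and 513 for Spp1. In bulk RNA, fewer cells in a given state and less RNA per cell cannot be told apart.

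Markers of other cell types were examined in the same way, and each list had members with no count in the 4 libraries. Of 14 macrophage and leukocyte markers 5 could be tested, the sum was 40.6 and 39.1 CPM in KO1 and 25.5 and 29.4 in KO2, Cd14 held the most counts over the 4 libraries together at 12.6 CPM, and Adgre1, Clec4f, Cd3e, Tyrobp and Fcer1g were among those with no count. In KO1 Csf1r held more, with 198 and 179 counts against 136 and 124 for Cd14. Within this list Csf1r (2.13) and Cd74 (2.27) rose and Lcp1 (-3.52) fell. The endothelial sum was 76.8 and 65.5 CPM in KO1 and 43.2 and 39.3 in KO2, most of it from Stab1 (50.6 CPM), which rose by 0.82, while Tek, Tie1 and Lyve1 had no count. The fibroblast and stellate sum was 903 and 956 CPM in KO1 and 969 and 847 in KO2, nearly all of it from Dcn, at 809 CPM, which did not pass the test (0.12, adjusted p = 0.107), and Pdgfrb, Lrat and Thy1 had no count. Vim, a filament protein of mesenchymal and cultured cells, was at 76.2 and 65.1 CPM in KO1 and at 124 and 133 in KO2, and fell by 0.87. No gene of the Y chromosome list could be tested, and of 3 germline genes tested Dppa4 fell by 0.88.

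Genes of the interferon response and of antigen presentation rose more often than they fell in KO1. Of 28 interferon response genes tested 13 rose and 1, Usp18, fell by 0.40, beside 23.5% higher and 26.4% lower over all genes tested. The median was 0.47, or 0.26 over the members with at least 10 counts in every library. Cxcl10, a chemokine for T cells, was at 20.9 and 24.9 CPM in KO1 and at 5.11 and 4.71 in KO2 (2.21 ± 0.18, adjusted p = 1.09e-13), and the guanylate-binding proteins Gbp3 (2.85) and Gbp2 (2.53) rose from levels under 1 CPM in KO2. In antigen presentation, 11 of 20 members rose and 4 fell (median 0.37). Tapbp, which loads peptides on class I molecules, was at 137 and 126 CPM in KO1 and at 41.4 and 43.6 in KO2, with WT at 43.8 and 43.6, so that KO1 alone was high (1.62 ± 0.09, adjusted p = 8.62e-20). Tap2, a peptide transporter, fell by 0.79 and B2m, the shared light chain, by 0.16. The class I genes that rose, H2-Q1 (1.45) and H2-T10 (1.36) among them, are near-identical to one another, and the assignment of reads within the family is uncertain.

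In the p53 pathway 16 of 32 members were higher and 3 lower (median 0.28), beside 23.5% higher and 26.4% lower over all genes tested. Fas, the death receptor, was at 17.2 and 18.6 CPM in KO1 and at 4.45 and 5.27 in KO2 (1.86 ± 0.19, adjusted p = 6.00e-11). Mdm2, the ligase that degrades p53, was at 271 and 262 CPM in KO1 and at 177 and 176 in KO2 (0.59, adjusted p = 8.17e-10). The clones did not overlap for either gene, but WT at 307 and 290 CPM for Mdm2 was above both. Trp53 itself did not pass the test (-0.04, adjusted p = 0.610).

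Contact and matrix genes differed in both directions. Of 33 matrix genes tested 15 rose and 10 fell, beside 23.5% higher and 26.4% lower over all genes tested (median 0.13, or 0.18 to 0.28 without 1 library). Thbs1, thrombospondin 1, was at 1028 and 901 CPM in KO1 and at 235 and 213 in KO2, with WT at 356 and 343 (2.10 ± 0.07, adjusted p = 1.10e-27). Col12a1, a fibril-associated collagen, was at 1.75 and 2.86 CPM in KO1 and at 19.3 and 16.4 in KO2 (-2.97, adjusted p = 1.66e-14). Targets of YAP and TEAD, the factors that respond to cell contact and tension, fell in 12 of 20 cases and rose in 6 (median -0.34). Ccn2 was at 69.9 and 55.0 CPM in KO1 and at 265 and 236 in KO2 (-2.01, adjusted p = 2.07e-23), and Ccn1 fell by 1.08, whereas Ankrd1, another target, fell by only 0.25. Of the immediate early genes 14 of 26 fell and 4 rose (median -0.35), with Egr1 at 35.5 and 32.8 CPM in KO1 and at 72.4 and 99.8 in KO2 (-1.35). In the TGF-beta list 13 of 31 fell and 8 rose (median -0.17, or -0.03 without KO2 replicate 2), led by the activin subunit Inhba (-4.86) and including the signal transducer Smad3 (-1.54).

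The remaining lists are given by their counts, beside 26.4% lower and 23.5% higher over all genes tested. DNA replication and mitosis had 21 of 66 members higher and 15 lower (median 0.02), glycolysis 6 of 26 higher and 8 lower (0.01), and fatty acid oxidation 5 of 21 each way (-0.11, or 0.08 without KO1 replicate 1 and 0.07 without KO2 replicate 2). Receptor tyrosine kinases and their ligands had 15 of 39 lower and 7 higher (-0.02), hypoxia targets 7 of 18 lower and 1 higher (-0.18), and integrins 5 of 14 lower and 4 higher (0.04). NRF2 targets had 11 of 25 higher and 6 lower (0.10), DNA methylation and silencing factors 10 of 25 higher and 4 lower (0.13), and imprinted genes 10 of 21 lower and 6 higher (-0.24). Epithelial junction and keratin genes had 10 of 24 lower and 3 higher (-0.14), and mesenchymal genes 6 of 16 each way (0.01). Periportal genes had 2 of 6 each way (-0.24, or -0.48 to -0.13 without 1 library). Chaperones of the endoplasmic reticulum had 10 of 23 lower and 3 higher (-0.21, or -0.02 without KO2 replicate 1).

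Some genes were on in 1 clone and nearly silent in the other. On was set at 1 CPM or more in both libraries of a clone, and off at 3 or fewer counts summed over both libraries of the other. By this rule 24 genes were on only in KO1 and 34 only in KO2, of which 8 and 19 had no count at all in the other clone. For comparison, 11086 genes were at 1 CPM or more in both libraries of KO1, and 11062 in KO2. Where a clone had no count, the fold below was taken against 3 counts over its 2 libraries and is a lower bound.

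Arhgdib, an inhibitor of small GTPases in blood cells, was at 5.77 and 5.68 CPM in KO2 and had no count in KO1, so that it was at least 41.8-fold higher in KO2. Slc9b1, a sodium-proton exchanger, was at 5.11 and 6.73 CPM in KO2 and had no count in KO1 (at least 43.7-fold). KO1 alone lacked Slc9b1, which was at 4.49 and 5.67 CPM in WT and at 5.72 and 7.33 in KO3, whereas Arhgdib was at 3.03 and 3.09 CPM in WT and at 0.0772 and 0.159 in KO3. In the other direction Dctd, deoxycytidylate deaminase, was at 8.41 and 6.39 CPM in KO1 and had no count in KO2 (at least 56.8-fold), with 61 footprints in KO1 and 1 in KO2. Fjx1, a secreted kinase-like protein, was at 4.99 and 4.86 CPM in KO1 (at least 37.6-fold), and Pof1b, an actin-binding protein, at 5.17 and 3.91 CPM (at least 34.8-fold). Rac2, a small GTPase of blood cells, was at least 13.2-fold higher in KO1 RNA, but 17 footprints were counted in each clone, and it is close in sequence to Rac1, so its value is uncertain.

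The lines used as context placed these switches differently. Of the 34 genes on only in KO2, 18 were also on in WT, 16 lay between and none was off by the same rule, and 13 were on in KO3. Of the 24 genes on only in KO1, 7 were on in WT, 8 were off and 9 lay between, and 14 were off in KO3. Pof1b, for example, was at 4.04 and 5.24 CPM in WT and at 8.03 and 9.48 in KO3, so that KO2 alone lacked it, whereas Kctd1, at 5.49 and 4.95 CPM in KO2, was missing only from KO1. CG steps were counted in the 250 bases before the start, with the highest number taken for a gene with several starts. The median was 4.5 over the 14 matched genes on in KO1 and 5.5 over the 20 matched genes on in KO2. Both medians were near that of 6 over all 27025 genes with a promoter and below that of 17 over the 8982 matched genes tested.

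**Figure D2:**
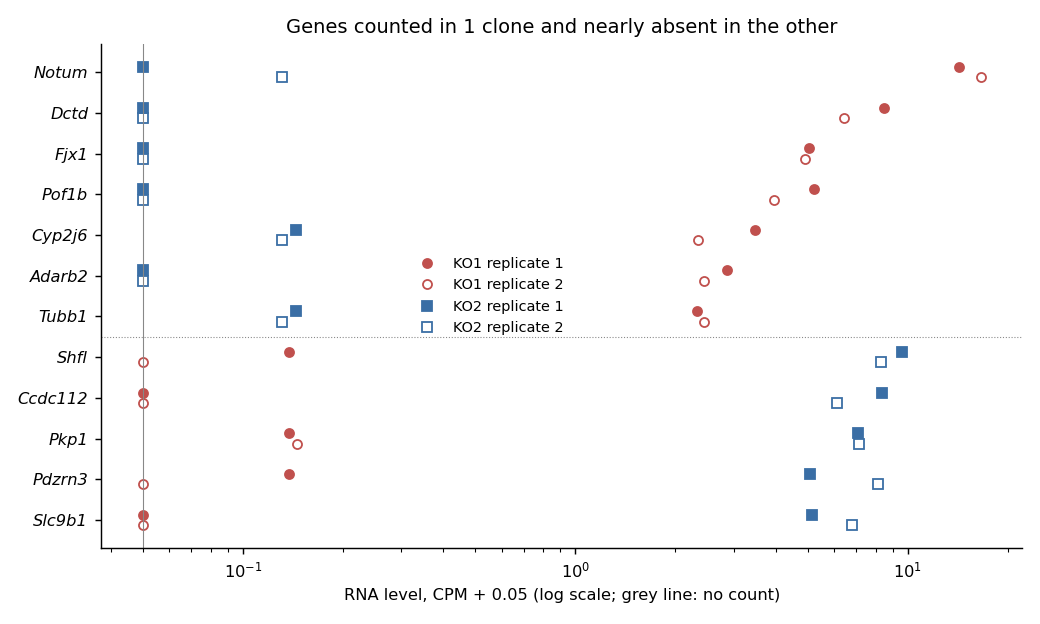
RNA level, as CPM + 0.05 on a log scale, of 7 of the genes with the highest level among those on only in KO1 (above the dotted line) and of 5 of those on only in KO2 (below it); red circles are KO1 and blue squares KO2, filled for replicate 1 and open for replicate 2. Symbols on the grey line had no count, as for Slc9b1 in KO1 and Dctd in KO2.

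Among the 1081 genes called at 2-fold or more, WT was nearer to KO2 than to KO1 for 798 (73.8%) and lay between the clones for 822 (76.0%), on the log2(CPM + 0.5) scale. KO3 was nearer to KO2 for 644 of them (59.6%) and lay between for 536 (49.6%). Neither share is a test, since the genes were chosen by the difference between KO1 and KO2.

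The differences were also arranged by chromosome. The median log2 fold change was -0.43 over 634 genes tested on chromosome 9, -0.42 over 857 on chromosome 7, and -0.40 over 355 on chromosome 16. It was -0.31 over 462 genes on chromosome 15, -0.27 over 619 on chromosome 8, and -0.20 over 687 on chromosome 1. Chromosome 10 was shifted the other way, with a median of 0.33 over 559 genes, and the medians of the other 12 autosomes and of chromosome X lay between 0.05 and 0.18. Chromosome Y, with 1 gene tested, was left out. On chromosome 9, 391 genes were lower and 20 higher, and on chromosome 7, 526 were lower and 28 higher, whereas on chromosome 11, 102 were lower and 304 higher. A median of -0.43 corresponds to a level of 74.4% in KO1 relative to KO2, and one of 0.33 to 126%. Over 15 ways of processing, the medians of these 7 chromosomes kept their sign. The range was -0.44 to -0.41 for chromosome 9 and 0.32 to 0.36 for chromosome 10. Among these ways, the stricter adjusted p of 0.01 cannot change a median.

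Against WT, these shifts were not all on the same side. KO1 was shifted on chromosomes 7 (-0.43 against WT), 9 (-0.35) and 16 (-0.33), where KO2 was near WT (0.01, 0.08 and 0.07). KO2 was shifted on chromosomes 1 (0.28 against WT) and 8 (0.27), where KO1 was nearer to WT (0.08 and -0.02). On chromosome 10, KO2 was lower than WT in every window of 50 neighbouring genes, with medians of -0.32 to -0.21, whereas KO1 was lower than WT in windows 1 to 4 (-0.29 to -0.16) and higher in windows 5 to 11 (0.07 to 0.36). These comparisons share WT and each shares a clone with the direct comparison, so they place the difference and add no independent support. On chromosome 15 the clones moved to opposite sides of WT (-0.18 for KO1 and 0.08 for KO2). No measurement of DNA was analysed here.

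**Figure D3:**
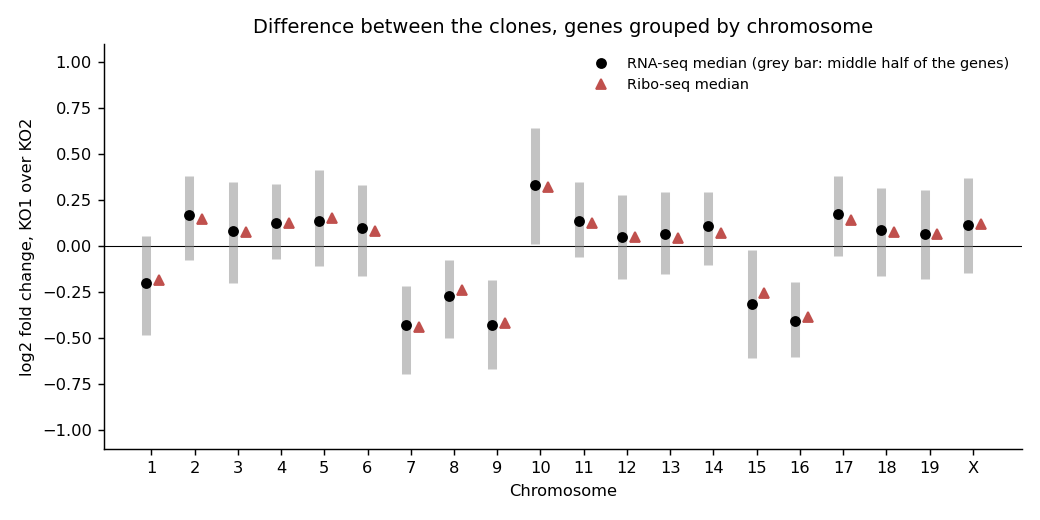
Median log2 fold change of KO1 over KO2 for the genes of each chromosome, in RNA-seq (black circles, with a grey bar over the middle 50% of genes) and in Ribo-seq (red triangles). Chromosomes 1, 7, 8, 9, 15 and 16 lie below 0 and chromosome 10 above it in both assays.

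Within chromosomes, the shift was uniform in some cases and regional in others. In windows of 50 neighbouring tested genes, every window of chromosomes 1, 7, 8, 9, 15 and 16 had a median below 0, with a range of -0.63 to -0.29 over the 17 windows of chromosome 7. Chromosome 10 was split, since windows 1 to 4, up to position 75537381, had medians of -0.01 to 0.11 and windows 5 to 11, from position 75636706, medians of 0.37 to 0.66. On chromosome 5 the first 13 windows had medians of 0.00 to 0.23, and the last 2, from position 139200637, had medians of 0.59 and 0.68. On chromosome 15 the median fell to between -0.49 and -0.61 in windows 4 to 7, from position 74994877 to 93336935 (GRCm38), and was -0.03 in the first window. Eef2 lies within the raised part of chromosome 10 and Eef1d within the lowered part of chromosome 15.

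**Figure D4:**
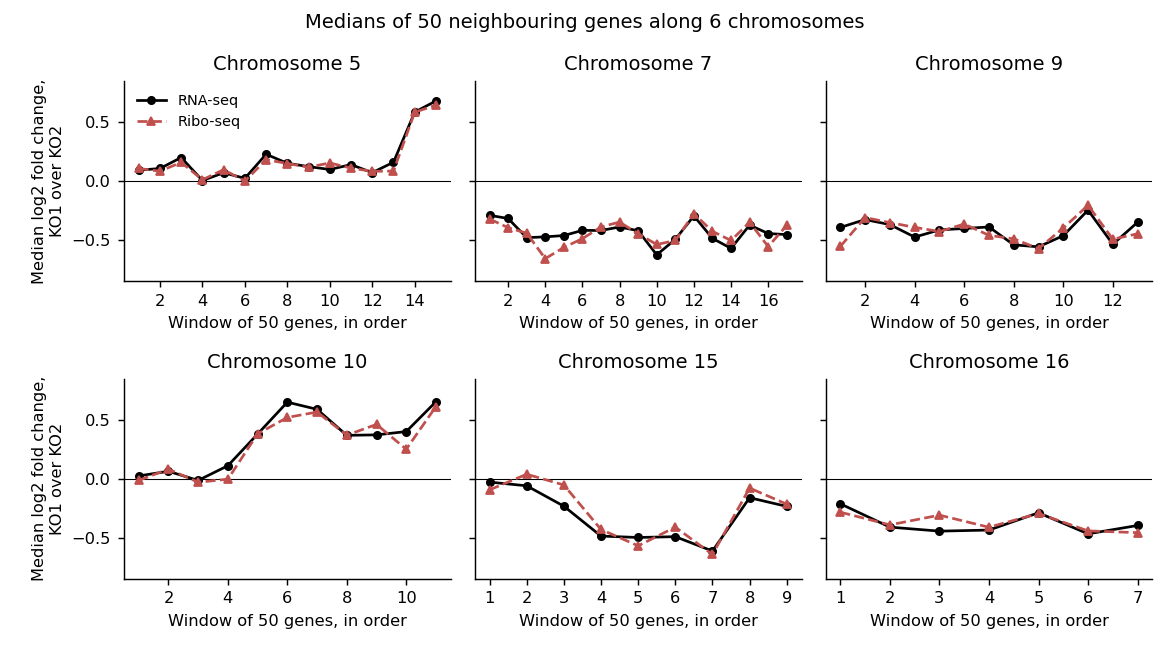
Median log2 fold change of KO1 over KO2 in successive windows of 50 tested genes along 6 chromosomes, for RNA-seq (black circles) and Ribo-seq (red triangles). The steps within chromosomes 5, 10 and 15 appear in both assays, and chromosomes 7, 9 and 16 stay below 0 throughout in RNA-seq.

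The neighbours of Eef1d were examined because the guides cut there in both clones. Of the 10 tested genes on each side, 13 were lower in KO1 and 3 higher, with a median of -0.45 and a range from -3.71 (Ly6f) to 2.09 (Ly6c2). Over all genes tested 26.4% were lower and 23.5% higher, and in the window of 50 genes on chromosome 15 that begins at position 74994877, 33 were lower and 3 higher. Scrib, a polarity scaffold, was at 130 and 138 CPM in KO1 and at 249 in both KO2 libraries (-0.91, adjusted p = 9.74e-15). Puf60, a splicing factor, was at 163 and 150 CPM in KO1 and at 239 and 224 in KO2 (-0.57, adjusted p = 4.58e-09). WT and KO3 lay between 202 and 230 CPM for both, so that the KO1 values were low. Gsdmd, the pore protein of pyroptosis, was higher in KO1, at 61.0 and 49.8 CPM against 34.5 and 31.1 (0.75, adjusted p = 1.92e-07). The fall of Eef1d itself (-0.17) was smaller than the median of its neighbours. The Ly6 genes are near-identical to one another and their values are uncertain.

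Ribosomal protein genes, which are abundant and usually move together, differed in both directions. Over all 82 members tested, 42 rose and 24 fell (median 0.14), beside 23.5% higher and 26.4% lower over all genes tested. On the 6 chromosomes with a lowered median, none of 33 rose and 24 fell (median -0.22), where 54.6% of all tested genes fell. On chromosome 10, where 52.6% of 559 tested genes rose, all 4 rose. On the other 13 chromosomes, which include the raised end of chromosome 5 that holds Rpl21, 38 of 45 rose and none fell (median 0.26), where 30.1% of all tested genes rose and 13.7% fell. Rpl41, on chromosome 10, was at 2004 and 2149 CPM in KO1 and at 820 and 881 in KO2 (1.27 ± 0.06, adjusted p = 1.10e-22). Rps15a, on chromosome 7, was at 390 and 416 CPM in KO1 and at 591 and 504.1 in KO2 (-0.45, adjusted p = 1.70e-07). Members of 1 complex thus differed in opposite directions between the clones, and the called members that fell were all on chromosomes with a lowered median. The part of the chromosome shifts in these values was not tested. Reads of processed copies of these genes may have added to some counts.

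Some of the gene lists above were recounted on the 13 chromosomes with a median nearer to 0, where 43.7% of 7263 tested genes were called. There 30.1% were higher and 13.7% lower. Counts for the lipoprotein, plasma protein, biliary and pericentral lists are not given here. The chromosomes set aside were chosen by the medians of this same comparison, and leaving them out moved the median of all genes to 0.12, so the counts are a description only. Cholesterol synthesis had 12 of 16 members lower and none higher (median -0.64), and the ATF4 list 14 of 19 lower and 2 higher (-0.71). The aminoacyl-tRNA synthetases had 7 of 12 lower and 3 higher (-0.39), the interferon list 10 of 21 higher and 1 lower (0.52), and the p53 list 12 of 19 higher and none lower (0.42). Of the 10 targets of YAP and TEAD there, 5 rose and 4 fell (0.04), of the 12 immediate early genes 3 rose and 4 fell (-0.02), and of the 20 TGF-beta genes 8 rose and 5 fell (0.14). Of the 17 matrix genes there, 12 were higher and 2 lower (0.66).

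Ribosome footprints from the same lysates followed the differences in RNA. The footprint libraries were shallower, with 4886753 and 1138943 counts in KO1 and 3990735 and 2991723 in KO2 over the same transcripts. In all, 3829 of 10507 genes were called (36.4%), with a range of 1505 to 3986 calls over 15 settings. Of the genes tested, 1777 were higher (16.9%) and 2052 lower in KO1 (19.5%), and 796 were called at 2-fold or more (7.58%). Of the 5738 genes called in RNA, 5288 were tested in footprints, where 4987 had the same direction (94.3%), 3163 were called in it and 17 were called in the opposite one. Of the 719 tested genes with a called RNA difference of at least 2-fold, 708 had the same direction. The log2 fold changes of the assays correlated across 10304 genes at r = 0.879, as a description, since the assays share lysates and genes are not independent. The footprint change was -3.72 for Apoe, 7.29 for Tm4sf1, -4.57 for Mmp13 and 0.49 for Eef2. The chromosome medians were close to those of RNA, at -0.42 for chromosome 9, -0.44 for chromosome 7 and 0.325 for chromosome 10.

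Translation efficiency (TE), the ratio of footprints to RNA, differed at few genes. Of 11676 genes tested 57 were called (0.488%), and 977 had an unadjusted p under 0.05. Of the 57, 17 were higher (0.146%) and 40 lower in KO1 (0.343%), and 8 differed by 2-fold or more (0.0685%). With a term for the replicate number the count was 134, and with a term for each lysate, added after the data were seen, it was 229. Without replicate 1 of KO1, which holds most of its footprints, it was 5. The median size of the difference was 0.18 for TE on the log2 scale, against 0.31 for RNA.

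Snupn, the adaptor that returns spliceosomal particles to the nucleus, was among the 40 genes with a lower TE in KO1. Its RNA was at 27.2 and 26.9 CPM in KO1 and at 6.53 and 7.14 in KO2 (1.97, adjusted p = 1.08e-13), but its footprints were at 8.19 and 10.5 CPM in KO1 and at 8.27 and 9.36 in KO2. The clones thus differed in RNA and overlapped in footprints, and the TE difference was -2.0 ± 0.33 (SE, adjusted p = 4.28e-04). Fn1, fibronectin, showed the reverse, with RNA at 2214 and 2153 CPM in KO1 and 2456 and 2612 in KO2, and footprints at 2590 and 2360 CPM in KO1 and 1740 and 1490 in KO2 (TE 0.81 ± 0.09, adjusted p = 3.72e-07). Igf2 (TE 3.61, adjusted p = 0.00302) rested on as few as 3 counts in a library. Eef1b2 fell by 0.44 in TE (adjusted p = 0.00743), so that its RNA was higher and its footprints (-0.25) lower in KO1. Among the 40 lower genes were 13 ribosomal protein genes of the 82 tested, with Rps12 (-0.80) and Rps20 (-0.69) the largest, and 78 of the 82 were below 0 (median -0.21, against 0.02 over 11327 genes). The replicates of KO1 differed more than 4-fold in footprint depth, and the part of this in the ribosomal protein values was not tested.

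**Figure D5:**
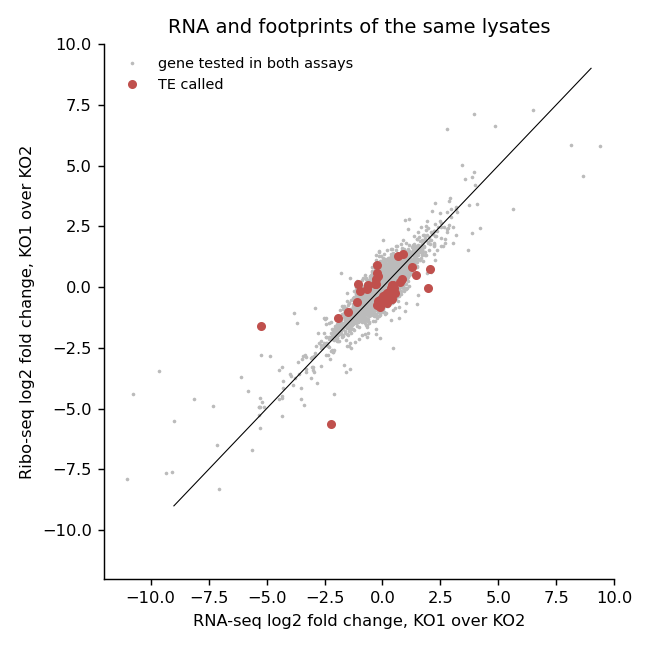
Log2 fold change of KO1 over KO2 in RNA-seq (x axis) and Ribo-seq (y axis) for 10304 genes tested in both assays (grey), with the genes called for TE in red and the line of equal change in black. Most genes follow the line (r = 0.879).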

How the data were processed

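RNA-seq and Ribo-seq came from shared lysates of Hepa1-6 lines. The labels give polyA RNA as the molecule, while the extraction protocol describes ribosomal RNA depletion with a directional library kit. Per the submitters' processing notes, reads were trimmed with fastp 0.21.0 and mapped to mm10 with STAR 2.7.0a. The deposited values are raw counts, which the authors made as whole reads per transcript, placed by A-site over the coding sequence without the first and last 5 codons. Counts were tested as deposited with edgeR 4.0.16 (R 4.3.3) by its quasi-likelihood test, with TMM scaling within each assay, filterByExpr and Benjamini-Hochberg adjustment, calling adjusted p under 0.05; TE was the interaction of clone and assay. CPM were computed from library totals over 1 transcript per gene. Positions came from the GENCODE M21 annotation (GRCm38) and covered 22249 of 22392 genes; the authors' counts used M23. The code was checked on simulated data. DESeq2 1.42.0, other scalings and filters, other transcript choices and leaving out each library were tried as alternatives.

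The comparison, the members and the gene lists were chosen with earlier results of these data known. Genes were named by fixed ranks: the 8 largest changes each way among called genes with 10 CPM or more in the higher clone and 4 counts or more in each library of the lower one, the on/off genes, the 5 largest changes in CPM each way, the leading members of each list, the 10 neighbours on each side of Eef1d, and the 5 largest changes in footprints and TE. In RNA-seq, the deviations of same-numbered replicates correlated at 0.0334 across 11495 genes, so there the numbers do not pair the clones. The same was not checked for footprints. Some genes that these ranks select are not reported here.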

Additional observations from a re-analysis of the deposited data

How the results depend on the processing

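Over 15 settings the RNA comparison gave 4360 to 5959 calls, and 744 to 1136 at 2-fold or more. Leaving out 1 library gave 4658 to 5141, and 1027 to 1086 at 2-fold or more. Footprint calls fell from 3829 to 1505 by DESeq2's likelihood ratio test and to 2048 with libraries thinned to the smallest total, and ranged from 1912 to 3570 without 1 library, the lowest without replicate 1 of KO1. TE calls fell from 57 to 21 with thinned libraries and to 30 at an adjusted p under 0.01. They rose to 134 with the replicate block and to 229 with the lysate block, and ranged from 5 to 46 without 1 library (5 without KO1 replicate 1, 23 without KO1 replicate 2, 34 without KO2 replicate 1). The Eef1d transcript without exon 5 lost its call with DESeq2's size factors (-0.157), library sizes only (-0.150), no filter (-0.160), the replicate block (-0.163), DESeq2 (-0.157) and thinned libraries (-0.158), and ranged from -0.169 to -0.145 without 1 library. The transcript with exon 5 ranged from -0.162 to -0.133. In RNA-seq the replicate numbers did not pair the clones, and the block took the call from 1 named gene, Cpt1b (-1.01).

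Of 247 named genes with 3652 values, 3484 kept direction and call, 161 from 41 genes lost the call, 1 gained it and 6 reversed. All 6 were Ly6g2 beside Eef1d, not called at -0.00217: 0.00139 with DESeq2's size factors, 0.00990 with library sizes only, 0.00802 with 10 counts in every library, 0.00155 by DESeq2, and -0.0276 to 0.0249 without 1 library. The median of fatty acid oxidation (-0.108) ranged from -0.228 to 0.0791 without 1 library, above 0 without KO1 replicate 1 or KO2 replicate 2, and that of the macrophage list turned to 0.712 with no filter. Other medians moved by over 1.5 times with their sign kept. With 10 counts in every library they were 0.0939 for xenobiotic enzymes (0.386), 0.262 for the interferon list (0.472), -0.115 for imprinted genes (-0.237) and -0.0881 for liver transcription factors (-0.202). With no filter they were -0.318 for plasma proteins (-0.523), -0.700 for lipoprotein genes (-1.14), -0.0567 for liver transcription factors and -0.156 for biliary markers (-0.519). They were also -0.42 for periportal genes (-0.242) and 0.576 for the fibroblast list (0.121) with no filter. With all lines in 1 fit they were -0.421 for periportal genes and 0.348 for the fibroblast list. Without 1 library they ranged from -0.165 to -0.0328 for the TGF-beta list, from -0.296 to -0.0189 for chaperones, from 0.180 to 0.281 for matrix genes (0.134), from -0.476 to -0.129 for periportal genes (-0.242) and from 0.0358 to 0.238 for the fibroblast list (0.121). The causes were not tested. The median of all genes stayed within 0.0157 of 0 under every setting.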
